A study of Mus musculus with 2 samples.

Results

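Keratins are the filament proteins of epithelial cells, and 7 of them, Krt4, Krt5, Krt12, Krt13, Krt14, Krt15 and Krt19, were examined in the mouse eye cup together with 3 enzymes of epithelial cells, Aldh3a1, Cyp2f2 and Cbr2. These 10 genes, of 18193 that were read by a probe set carrying a single gene symbol, had 16 such probe sets among the 45101 of the array, and all 16 are described. The keratins and Aldh3a1 are known from the surface epithelium that borders the eye cup, while Cyp2f2 and Cbr2 are less specific to it. They were chosen in part from the log2 differences between these same arrays, among which several of the genes held some of the lowest values, so every difference below is a description and carries no test.

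RNA came from eye cups taken on postnatal day 13, around the time of eye opening in mice. The cornea, the lens and the optic nerve had been cut away from the eye cups. Equal amounts of RNA of 6 wild-type animals made up the wild-type sample, and the RNA of 6 Mfsd2a KO animals made up the other, with 1 Affymetrix Mouse 430 2.0 array for each pool. Mfsd2a encodes a transporter of lysophosphatidylcholine that brings long-chain fatty acids into the eye and brain. The labels give no strain, no sex and no description of the deletion. For Mfsd2a itself, the single probe set gave 181 in the wild-type pool and 244 in the pool labelled knockout, against the direction of the label, and where its probes lie relative to the deletion was not analysed here. The second sample is therefore called the array labelled knockout, and each direction rests on that label. A single pool per genotype gives no spread between samples, and genotype, dissection, sex make-up and array handling cannot be told apart.

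Keratin filaments are built from pairs, each of an acidic type I and a basic type II protein, and the pair in use changes with the kind of epithelium and the layer. Krt5 and Krt14 are the pair of basal cells in stratified epithelia. Krt4 and Krt13 are the pair of the upper layers of non-cornified mucosae such as conjunctiva. Krt12 is known as the keratin of corneal epithelium. Krt15 is a keratin of basal cells that is abundant at the limbus, where corneal stem cells lie, and Krt19 is found in conjunctiva and in many simple epithelia. Aldh3a1, an aldehyde dehydrogenase, is so abundant in mouse corneal epithelium that it is called a corneal crystallin. Cyp2f2, a cytochrome P450, and Cbr2, a carbonyl reductase, are best known from the secretory cells of mouse airways.

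The genes lie on 3 chromosomes. All 5 type I keratins, Aldh3a1 and Cbr2 are on chromosome 11, both type II keratins on chromosome 15 and Cyp2f2 on chromosome 7. RefSeq promoter windows (build GRCm38.p6) were found for 6 of the 10 genes, and for 5 of them a window began within 500 bases of the outer end of the gene. The 200 bases before the start are shown for a type II keratin, a type I keratin and the enzyme with the lowest difference, since these represent the 3 roles. Each is written 5' to 3' on the strand of its gene, with matches to ATAAA (the core of a TATA box, searched on the strand of the gene in the last 40 bases) and CACCC or its complement GGGTG (bound by factors of the KLF family, searched on both strands) in capitals. The 2 motifs cannot overlap.
Krt5 (chr15:101712906-101713105, minus strand): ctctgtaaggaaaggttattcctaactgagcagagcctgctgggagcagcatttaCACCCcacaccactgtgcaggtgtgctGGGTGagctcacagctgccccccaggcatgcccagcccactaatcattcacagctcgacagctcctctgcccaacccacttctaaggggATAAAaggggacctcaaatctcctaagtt
Krt13 (chr11:100121567-100121766, minus strand): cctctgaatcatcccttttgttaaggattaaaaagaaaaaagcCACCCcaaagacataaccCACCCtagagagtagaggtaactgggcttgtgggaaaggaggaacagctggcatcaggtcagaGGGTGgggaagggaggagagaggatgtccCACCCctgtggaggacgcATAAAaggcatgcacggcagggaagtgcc
Cyp2f2 (chr7:27119755-27119954, plus strand): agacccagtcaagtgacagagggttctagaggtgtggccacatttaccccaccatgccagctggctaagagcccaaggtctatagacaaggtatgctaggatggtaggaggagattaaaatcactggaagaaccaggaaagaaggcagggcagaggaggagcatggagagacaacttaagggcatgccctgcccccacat
In Krt5 and in Krt13 the ATAAA began 29 bases before the start, and in Krt12, not shown, 28 bases before it. Thus 3 of the 5 windows held ATAAA, against 5.50% of 32851 RefSeq windows of the same length. CACCC was in 4 of the 5, and in 45.5% of all windows. The AP-1 motif TGANTCA was in 1 of the 5, that of Krt13, and in 5.48% of all windows. The window of Cyp2f2 held none of the 3 motifs. The 32851 windows were not limited to those near the outer end of a gene, as the 5 were, so the shares are not like for like. The windows left out by that limit were a second one of Krt13 and the only one of Krt14. Both held CACCC and no ATAAA, and that of Krt13 held TGANTCA. The motifs were chosen after the windows had been read, and a match is a stretch of letters, not a shown site.

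The deposited values are intensities on a linear scale, and each difference is the base 2 logarithm on the array labelled knockout minus that on the wild-type array. A probe set was counted as above the floor when it reached the median of its array, 94.2 in wild type and 93.4 in the other, on at least 1 array. Of the 16 probe sets, 10 were above the floor, and all 10 read lower on the array labelled knockout, where 42.1% of all 20105 such probe sets were below 0. Of these 10, 7 were at least 1.2-fold lower, against 1.15% of all, and 2 at least 1.5-fold lower, against 0.0945%. Those 2, of Cyp2f2 and Aldh3a1, reached the floor only on the wild-type array, where they are high. Over all 16, including those below the floor, 14 were below 0, against 47.9% of 34945 probe sets. Levels of different probe sets are not set against each other here, since each has its own affinity.

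**Figure D1:**
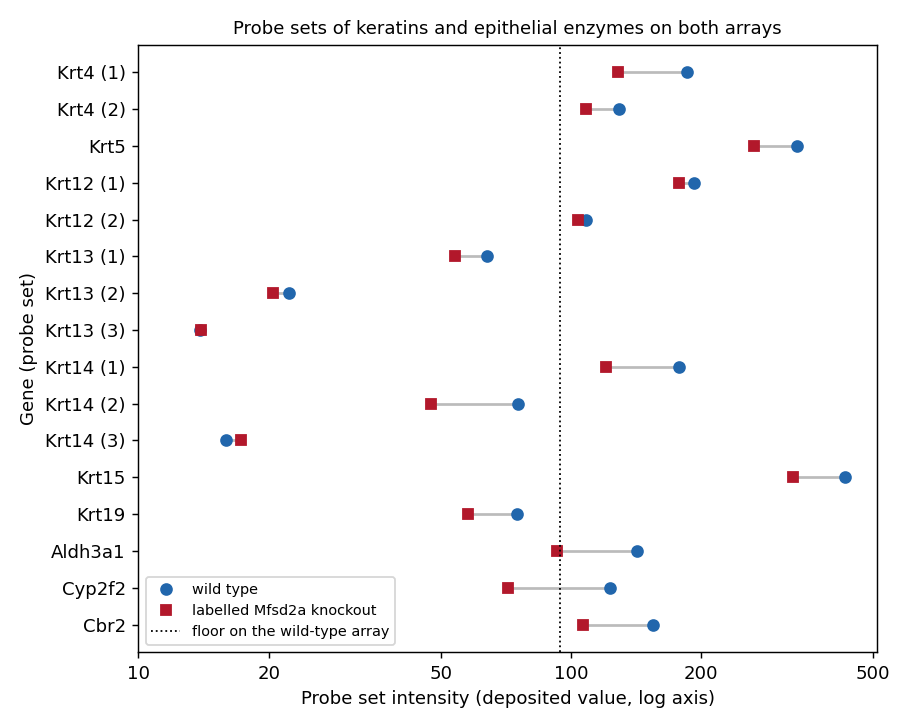
Intensity of each of the 16 probe sets (rows, numbered within a gene from the brightest) on a log axis, for the wild-type array (blue circles) and the array labelled knockout (red squares), with 1 value per array and no error bar; the dotted line marks the floor of 94.2. The red square lies left of the blue circle in 14 probe sets, and the gap is narrow in both of Krt12.

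Both type II keratins read lower on the array labelled knockout. Krt5, the basal keratin, gave intensities of 333 (wild type) and 265 (labelled knockout), which is a log2 difference of -0.33 or 1.26-fold lower. The brighter probe set of Krt4, the mucosal keratin, read 185 and 129, a difference of -0.53 or 1.44-fold lower. Its dimmer probe set ends in _x_at, a mark that its probes may bind other transcripts as well, and read 129 and 108, a difference of -0.26 or 1.19-fold lower. The wild-type value was thus the higher in all 3 probe sets, and the 2 of Krt4 gave unequal sizes.

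The type I keratins spread more widely. Krt14, the partner of Krt5, gave 178 (wild type) and 121 (labelled knockout) in its brightest probe set, so that the log2 difference was -0.56 or 1.48-fold lower. That probe set also ends in _x_at. A second one, without the mark but below the floor, read 75.7 and 47.6, a difference of -0.67. The third was far below the floor, at 16.0 and 17.2, with a difference of 0.11. The 2 brighter probe sets of Krt14 therefore gave the same direction, and the dimmest the opposite one. One more probe set, assigned to both Krt17 and Krt14 and so not counted, read 34.8 and 31.2.

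Krt15 was above the floor on both arrays by a wide margin, at 430 (wild type) and 327 (labelled knockout). Its difference was -0.40, or 1.32-fold lower. Krt19 read 74.9 and 57.7, a difference of -0.38 or 1.30-fold lower, but lay below the floor on both arrays, so the size is less certain. Krt13, the partner of Krt4, lay below the floor as well. Its brightest probe set read 63.8 and 54.0 (-0.24, 1.18-fold lower), and the other 2, both ending in _x_at, had differences of -0.12 (22.2 and 20.5) and 0.01. No direction can be read from the dimmest of the 3.

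Krt12 differed least of the 10 genes. Its brighter probe set gave 192 (wild type) and 178 (labelled knockout), which is a log2 difference of -0.11 or 1.08-fold lower, and the other read 109 and 104, a difference of -0.06 or 1.04-fold lower. The name of the brighter one ends in _s_at, a mark that its probes may bind other transcripts as well. Both probe sets were above the floor on both arrays. Of the 11568 measured genes, 1046 had a lower difference than Krt12, or 9.04%. For Krt14 that number was 11 and for Krt4 14. The corneal keratin was thus above the floor in both pools although the cornea had been removed per the labels. The floor is the median of an array and not a test of presence. Whether Krt12 differed from the other keratins could not be tested with 1 array per genotype.

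The 3 enzymes had the lowest differences as a group. Cyp2f2 gave 123 (wild type) and 71.6 (labelled knockout), which is a log2 difference of -0.78 or 1.72-fold lower, and 2 of the 11568 measured genes had a lower difference. Aldh3a1, which oxidises aldehydes such as those of lipid peroxidation, read 142 and 92.7, a difference of -0.62 or 1.53-fold lower. Cbr2 read 155 and 107, a difference of -0.54 or 1.45-fold lower. Each enzyme has 1 probe set, so no second reading of these genes was at hand. On the array labelled knockout Cyp2f2 and Aldh3a1 lay below the floor. Differences spread more widely with dim genes included, with an SD of 0.135 over all genes with no floor and 0.113 over measured genes. The sizes for these 2 enzymes are therefore less certain.

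**Figure D2:**
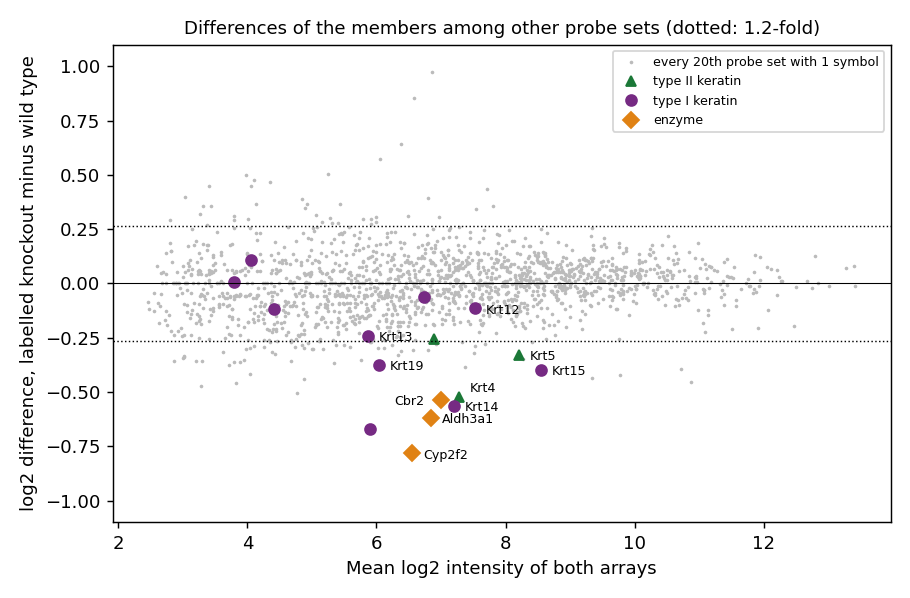
Log2 difference between the arrays (labelled knockout minus wild type, vertical axis) against the mean log2 intensity of both arrays (horizontal axis) for the 16 probe sets, coloured by role, over every 20th probe set with 1 symbol in grey; names stand at the brightest probe set of each gene. Those of Krt4, Krt5, Krt14, Krt15, Krt19 and the 3 enzymes lie below the dotted line at 1.2-fold lower, and those of Krt12 and Krt13 lie above it.

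Taking the brightest probe set of each gene, 8 of the 10 genes were measured, that is, reached the floor on at least 1 array, and Krt13 and Krt19 were not. All 8 were below 0, against 42.4% of the 11568 measured genes. Their median log2 difference was -0.53, beside 0.014 for all measured genes. At least 1.2-fold lower were 7 of the 8, against 1.17% of measured genes, and at least 1.5-fold lower were 2, Cyp2f2 and Aldh3a1, against 0.0864%. Those 2 reached the floor on the wild-type array alone, and with the floor required on both arrays 5 of 6 were at least 1.2-fold lower and 0 at least 1.5-fold. Among the 4915 measured genes with mean intensities in the range of these 8, from 97.3 to 379, the share at least 1.2-fold lower was 1.49%. No member was higher by that size. These genes were chosen with the same contrast in view, and nothing is read from the counts beyond their size. The median was -0.40 for the 5 measured keratins and -0.62 for the 3 enzymes. When all probe sets of a gene were averaged, the differences of Krt4 (-0.39), Krt14 (-0.37) and Krt13 (-0.12) were smaller in size. In a pool of whole tissue, fewer cells of a type and less RNA per cell cannot be told apart.

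**Figure D3:**
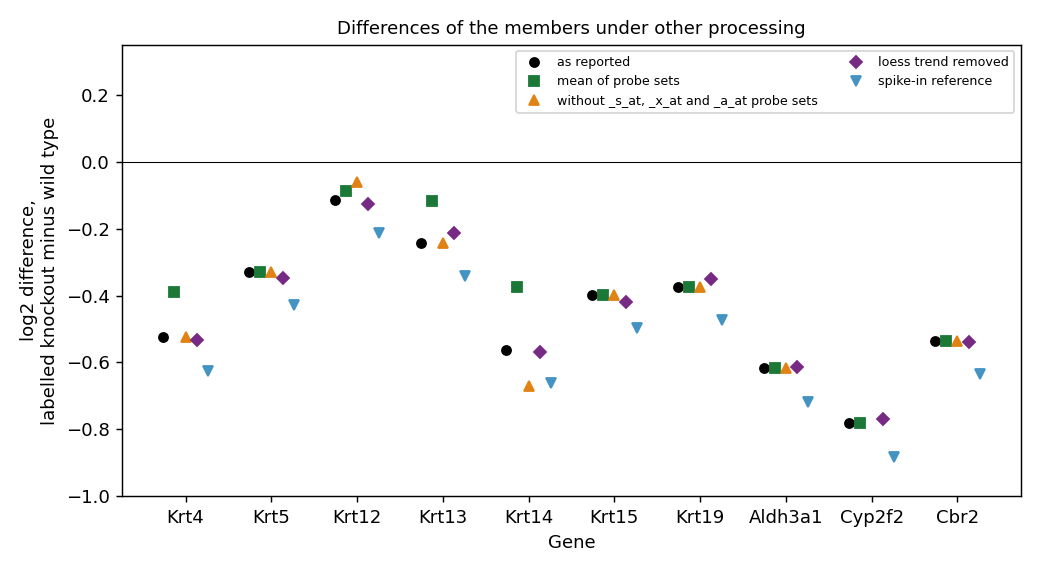
Log2 difference of each of the 10 genes (labelled knockout minus wild type) as reported and under 4 other ways of processing; Cyp2f2 has no value without _s_at, _x_at and _a_at probe sets. All 39 alternative values lie below 0, and those of Krt12 are nearest to it under each of the 4.

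The other keratins of the array were read for comparison, and the choice of the 7 in part by their differences fixes some of the contrast with them. On chromosome 11, where the type I genes form a cluster, 19 further keratin genes were on the array and 4 were measured, with differences between -0.02 and 0.01. Krt10, the type I keratin of cornifying epidermis, read 411 (wild type) and 406 (labelled knockout). On chromosome 15, which carries the type II cluster and Krt18, 22 further keratin genes were on the array and 8 were measured, with differences from -0.28 to 0.14. The lowest was Krt6a, a keratin of activated and mucosal epithelium and a neighbour of Krt5, at 224 and 185 (1.21-fold lower). It was the 1 gene of these 12 past 1.2-fold. Its near copy Krt6b, with which it may share probes, read 177 and 157, a difference of -0.18. The pair of simple epithelia, Krt8 (540 and 506, -0.09) and Krt18 (1351 and 1471, 0.12), gave opposite signs. Krt1, of cornifying epidermis, read 203 and 208. The median of the 12 was -0.01, beside -0.40 for the 5 measured keratins of stratified ocular epithelium. Below the floor lay 29 others, of which 20 were below 0 and 3 at least 1.2-fold lower, among them Krt16 (52.5 and 41.4), next to Krt14 in the cluster. The shares were 48.8% and 3.38% of all 18193 genes with no floor, and 42.4% and 1.17% of the measured genes alone. Since both shares are larger with no floor than among measured genes, they must be larger still among genes below the floor alone. Those were not computed, so no excess is read from these counts. In chromosomal order Krt13, Krt15, Krt19 and Krt14 lie close together, with Krt12 farther off.

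**Figure D4:**
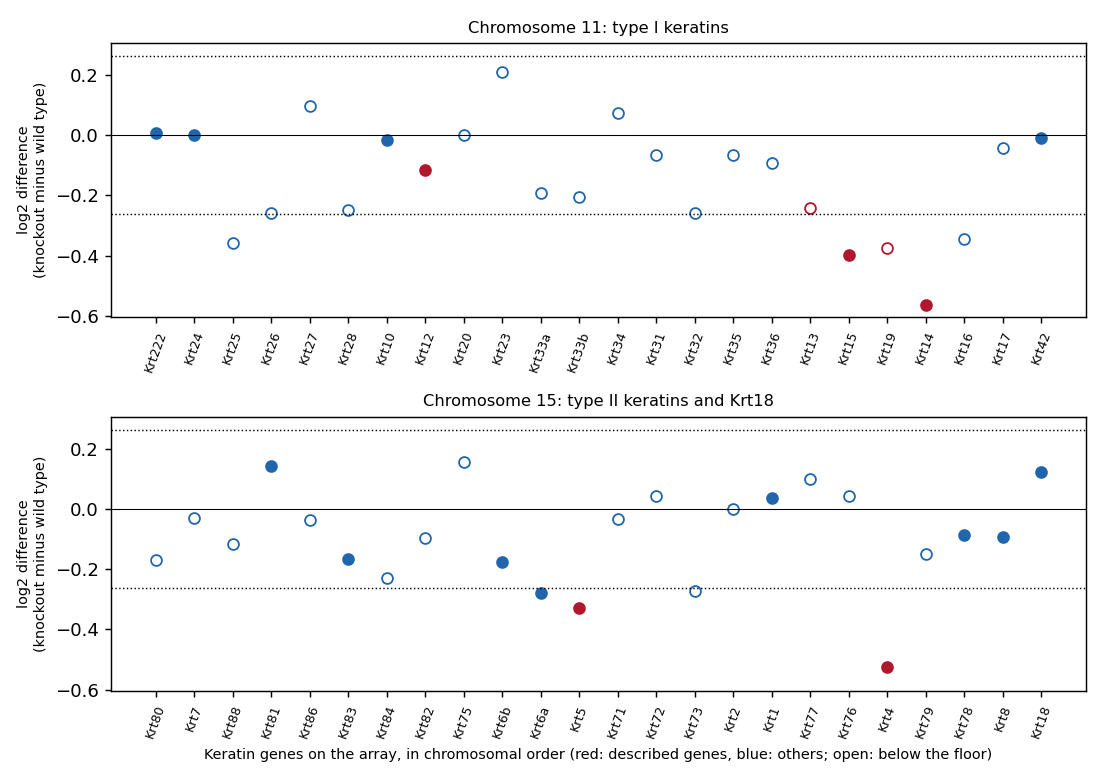
Log2 difference (labelled knockout minus wild type) of every keratin gene on the array, in chromosomal order on chromosome 11 and chromosome 15, with the 7 described keratins in red, the other 41 in blue, and open symbols for genes below the floor. The dotted lines mark 1.2-fold; of the filled blue symbols only Krt6a lies below it.

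Other genes of stratified and ocular surface epithelium were followed through 7 lists that hold none of the 10 genes. Of 123 genes listed, 117 were on the array and 55 were measured. Of these, 37 were below 0, against 42.4% of all measured genes, and the median was -0.06, beside 0.014. At least 1.2-fold lower were 4, Gjb2, Calml3, Adh7 and Krt6a, and at least 1.2-fold higher were 2, Dsc2 and Col17a1, where 1.17% and 1.79% of all measured genes were lower and higher by that size. Of these, Gjb2 and Adh7 reached the floor on the wild-type array alone and Col17a1 on the other array alone, so that each was measured only through the array where it is high. Most of the 55 genes differed by less than 1.2-fold, as did most of all measured genes. Not all of the 55 are specific to epithelium, since 15 are from the list of enzyme relatives and some, such as Tfap2a and Dst, are also genes of neurons.

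Among adhesion genes, 9 were measured, 7 of them below 0. Gjb2, the gap junction protein connexin 26, read 103 and 73.2, a difference of -0.49. Dsp, which links keratin filaments to desmosomes, read 128 and 114 (-0.17), and Perp, a desmosome component, read 323 and 286 (-0.18). Dsc2, a desmosomal cadherin, went the other way at 98.0 and 126 (0.36). In the hemidesmosome and basement membrane list 3 of 6 measured genes were below 0. Col17a1, a collagen of the hemidesmosomes that anchor basal keratinocytes, read 69.7 and 128, a difference of 0.88 and the 1 epithelial gene of these lists past 1.5-fold in either direction, where 0.138% of measured genes were higher by that size. Its wild-type value was below the floor, and it opposed Krt5 and Krt14, the keratins of the same basal cells. Itga6 was also higher (280 and 332, 0.25), and Dst, whose epithelial product ties keratins to hemidesmosomes but which neurons express too, read 1227 and 1101 (-0.16).

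Of the transcription and splicing factors of epithelia, 7 were measured, none past 1.2-fold in either direction. Klf4 read 121 and 119 and Elf3 read 120 and 110 (-0.12), whereas Tfap2a, also a gene of amacrine neurons, read 563 and 638 (0.18) and Grhl2 read 92.1 and 101 (0.13). In the list of squamous differentiation 3 of 16 genes were measured and all 3 were below 0, with a median of -0.16, Calml3, a calmodulin-like protein of stratified epithelia, at 276 and 194 (-0.51) and the envelope proteins Evpl (-0.16) and Ppl (-0.12). Of the mucins and secreted proteins of the ocular surface 7 of 20 were measured and 5 were below 0, none past 1.2-fold. Lypd2 read 100.4 and 84.8 (-0.24) and Tff1, a trefoil peptide of mucous cells, 478 and 427 (-0.16), while Agr2, of goblet cells, read 87.8 and 102 (0.21). Among 15 measured relatives of the enzymes 10 were below 0. Adh7, an alcohol dehydrogenase of stratified epithelia, read 96.6 and 74.0 (-0.38), Cyp2j6, a cytochrome P450, went the other way at 93.2 and 107 (0.20), and Fmo1 read 214 and 188 (-0.19). The closest relative of Aldh3a1 on the list, Aldh3a2, read 197 and 185 (-0.09), and Aldh1a1 read 1106 and 1058 (-0.06). Lypd2 and Adh7 reached the floor on the wild-type array alone, and Grhl2, Agr2 and Cyp2j6 on the other array alone. Each of them was thus measured only through the array where it is high. With the floor required on both arrays, 4 of the mucins and secreted proteins were left in place of 7.

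**Figure D5:**
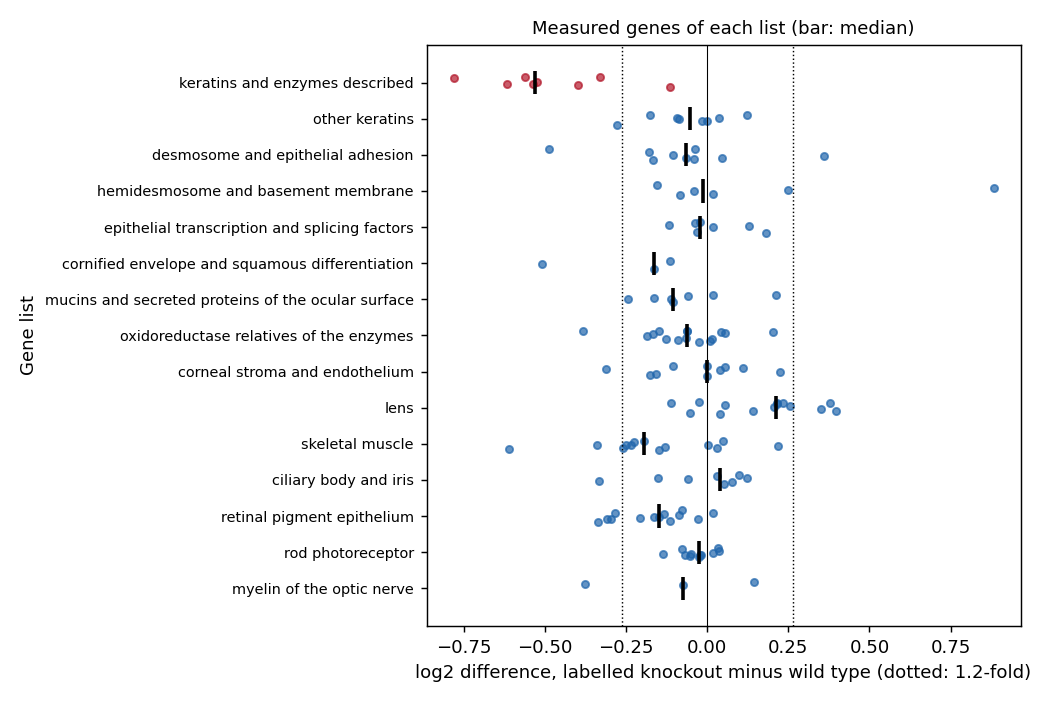
Log2 difference (labelled knockout minus wild type) of the measured genes of the lists named on the vertical axis, which leave out the erythroid and sex-linked genes, 1 point per gene with the median as a black bar, for the 8 measured genes described (red) and the other lists (blue); the dotted lines mark 1.2-fold. The red points lie to the left, from -0.78 to -0.11, while the medians of the blue lists drawn lie between -0.20 and 0.21.

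Markers of the labelled tissue and of its neighbours were read beside these genes. The rod genes Sag, Gnat1 and Pde6b and the pigment epithelium genes Rpe65, Rlbp1, Lrat and Ttr, which define the eye cup, were all far above the floor, from 1308 to 18569. Of the 10 markers of corneal and conjunctival epithelium 9 were on the array, 7 of which are genes described above. The 5 that were measured are all among those 7, and all 5 were below 0, against 42.4% of measured genes. Since the described genes were chosen in part by their differences, this count repeats that choice, as does most of the following sum. The summed intensity of all 9, those below the floor included, was 1250 (wild type) and 979 (labelled knockout), and none of the 9 had an intensity of 0. The other 2, Cdh1 (58.3 and 60.4), an epithelial cadherin, and Trp63 (22.3 on both arrays), a transcription factor of basal cells, lay below the floor with differences of 0.05 and 0. The defining goblet cell genes Muc5ac (83.9 and 78.5) and Spdef (64.8 and 56.8) lay below the floor too.

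Genes of tissues next to the eye cup, and of the pigment epithelium and rods within it, differed between the pools in both directions. Lens genes had 11 of 14 measured members above 0 and a median of 0.21, with Cryga (0.40), Crygf (0.38) and Cryaa (0.35) highest, and their summed intensity was 5051 (wild type) and 5744 (labelled knockout). Skeletal muscle genes had 9 of 13 below 0 and a median of -0.20, with Pvalb at 561 and 368 (-0.61), and summed to 5865 and 5316. With no floor that median was -0.098 over 20 genes. Genes of corneal stroma and endothelium had a median of 0 over 10 genes, 4 below 0, with summed intensities of 11896 and 11569; Kera, a proteoglycan of the corneal stroma, read 227 and 183 (-0.31) and Ogn differed by -0.18, whereas Thbs4 differed by 0.23 and Lum by 0.05. Pigment epithelium genes were below 0 in 12 of 13, against 42.4% of measured genes, and 4 were at least 1.2-fold lower, against 1.17%, among them Rdh5 (-0.34), Lrat (-0.31) and Rgr (-0.30). Their median was -0.15, with sums of 51591 and 47936. Ciliary body and iris genes had a median of 0.04 over 8 genes, with Optc at -0.33, and rods -0.03 over 11. The median of the 3 measured myelin genes was -0.07, with Mal at -0.38 and Mbp at 0.14, but -0.40 when the probe sets of each gene were averaged and -0.19 over 8 genes with no floor. The 3 measured Y-linked genes, led by Uty at 78.2 and 157, were higher on the array labelled knockout and Xist, of the inactive X chromosome, was lower (7055 and 4357, -0.70). Uty and Kdm5d reached the floor only on the array labelled knockout, where they are high. With the floor required on both arrays 1 Y-linked gene was left, Eif2s3y, at 0.65. Blood was read through 1 measured gene, Alas2, at 147 and 124. No intensity was 0 on either array, the lowest being 5.15 (wild type) and 5.07 (labelled knockout). The part of these tissues in the lower keratin and enzyme values was not tested.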

How the data were processed

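Total RNA of 2 pools of eye cups, 6 animals each, was hybridised to 1 array per pool. The deposited values are probe set intensities on a linear scale, for which the submitters' processing notes name Partek 6.6 and RMA with no settings. RMA (robust multi-array averaging) equalises the arrays, so an overall difference between pools is removed, and it tends to shrink true differences of dim probe sets. The differences read here still spread more widely when dim genes were included. Symbols came from the platform annotation: 34945 probe sets other than 64 controls had 1 symbol and 932 had several, which were not used. All 10 described genes were matched by Entrez identifier to RefSeq (GRCm38.p6), which also gave the promoter windows and the chromosomal order.

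Log2 differences, the floor at the median of an array without its control probe sets, and counts past 1.2-fold and 1.5-fold were computed with Python 3.11.15, numpy 2.4.6, pandas 2.3.3 and statsmodels 0.14.6, and the steps were tested on simulated data. The number of arrays, 1 per pool, limits the precision, and no p-value is given. The 10 genes and the lists were chosen with earlier results of these data known. Named genes are every described gene and, from the cell type markers and from the 3 measured genes farthest from 0 and the first 2 in order of each list, those used in the text; for the tissues next to the eye cup only some were. Krt8, Krt10 and Krt16 were named as family members after their values were seen. No gene was named for a likeness of pattern, since 2 arrays give 1 difference per gene. Alternatives were the mean of probe sets, leaving out probe sets with names ending in _s_at, _x_at or _a_at, a floor at the 70th percentile, no floor, a loess trend removed (span 0.3, 3 iterations), and the median of 18 hybridisation spike-ins subtracted. A floor on both arrays was added after seeing the data.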

Additional observations from a re-analysis of the deposited data

How the results depend on the processing

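No paired analysis was possible because there is 1 array for each pool. All 39 differences of the 10 genes under 4 alternatives of the probe set choice, trend or reference were below 0, as were those of the measured members under each floor. Many of these signs could not have changed. The spike-in reference lowers every gene alike, and a floor only drops genes. A gene with 1 probe set keeps its value in the mean of probe sets, and most genes kept theirs without the suffixed probe sets. No support is therefore read from the count. Values count as moved when they shift by more than 0.0886, the SD among probe sets of a gene, or a count by over 1.5 times. The median of -0.53 was -0.39 with the mean of probe sets, -0.36 at a floor raised to the 70th percentile and -0.63 with the spike-ins as reference, which shifts every gene by the same 0.099 and puts the median of all measured genes at -0.085 and 4.58% of them at least 1.2-fold lower in place of 1.17%. At that higher floor 2 members, Krt5 and Krt15, were left, so that the count at least 1.2-fold lower went from 7 to 2 of 2 and the count at least 1.5-fold lower from 2 to 0. The latter was 1 without _s_at, _x_at and _a_at probe sets, which removes Cyp2f2, and 0 with the floor on both arrays, which leaves 6 members, 5 of them at least 1.2-fold lower. List medians near 0 changed sign: hemidesmosome genes from -0.01 to 0.014 with the mean of probe sets and 0.016 with no floor, transcription factors from -0.02 to 0.018 at the higher floor. With the spike-ins the median of ciliary body and iris was -0.059, which the common shift alone gives. Short lists moved more: myelin from -0.07 to -0.40 with the mean of probe sets, -0.42 over 1 gene without the suffixed probe sets and -0.19 with no floor, squamous differentiation from -0.16 to -0.34 over 2 genes and, at the higher floor, -0.51 over 1, Y-linked genes from 0.88 to 0.42 with the mean of probe sets, and skeletal muscle from -0.20 to -0.098 with no floor. The higher floor and the filters leave fewer genes; beyond that, the cause was not tested.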
